A study of Homo sapiens with 8 samples.

Results

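Expression of TLL1 and of the bone morphogenetic protein (BMP) ligands, antagonists and target genes was followed in BEAS-2B cells, an immortalised line derived from human bronchial epithelium. The 10 genes were TLL1, BMP1, BMP2, BMP4, BMP7, GREM1, NOG, CHRD, ID1 and ID3, chosen by symbol from the 25411 genes counted by RNA-Seq in each of 8 libraries. UT denotes the untreated control cells. Ni-E denotes cells cultured for 6 weeks with 100 µM NiCl2, which dissolves to give nickel ions. Ni-W, the nickel-washed-out cells, had received that exposure and were then grown from a single exposed cell for more than 6 months in medium without nickel, so the group stands for 1 clone. The treatment text of the libraries labelled HCl3 is that of Ni-W, and their time without nickel was not given. Each group had 2 libraries. The study's methods give 2 biological replicates for RNA-Seq but do not name HCl3, whose second library carries the label Dup. Whether the HCl3 libraries are biological replicates was not stated. Experiment numbers appear in the labels of Ni-E (2 for both libraries) and HCl3 (3 and 4) but not of UT and Ni-W, so experiment and group cannot be told apart.

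BMPs are secreted ligands that signal through serine/threonine kinase receptors and the transcription factors SMAD1, SMAD5 and SMAD9, and the ID genes are among their best known direct targets. Secreted antagonists such as gremlin (GREM1), noggin (NOG) and chordin (CHRD) bind the ligands and keep them from their receptors. Proteases of the tolloid family, which include BMP1 and TLL1, cleave chordin and also process procollagens and lysyl oxidase outside the cell. In the airway and lung this pathway takes part in branching, epithelial repair and matrix deposition.

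Libraries held between 26383920 and 45692298 counted reads. Pearson's r of log2 normalised counts across 13856 genes ranged from 0.990 to 0.994 for replicates and from 0.937 to 0.983 for libraries from different groups, with genes not being independent replicates. The label of an epithelial line was checked against markers. KRT8 (192.19 to 310.30 RPKM, reads per length of the gene and per mapped reads), KRT18 and KRT7 were abundant, while KRT5 (at most 0.03 RPKM), CDH1 (at most 0.11 RPKM) and CLDN4 (at most 0.21 RPKM) were nearly absent. VIM and THY1, which mark mesenchymal cells, were abundant too, and DCN had no reads. Of the 4 blood markers, CD3E had no reads, and PTPRC (at most 0.04 RPKM) and HBB (at most 0.06 RPKM) were nearly absent. CD14 was at 1.80 and 1.06 RPKM (UT), 1.07 and 1.96 (Ni-E), 4.15 and 2.85 (Ni-W) and 2.84 and 4.07 (HCl3). Summed RPKM of the 8 epithelial markers was 602.4 to 636.1 in UT, 579.3 to 793.8 in Ni-E, 946.6 to 971.9 in Ni-W and 934.7 to 995.7 in HCl3. Summed RPKM of the 8 fibroblast and mesenchymal markers was 1997 to 2032, 1318 to 1328, 1215 to 1405 and 2155 to 2196 in the same order. KRT8, KRT18 and KRT7 made up nearly all of the epithelial sum, with EPCAM at most 1.79 RPKM and KRT19 at most 0.78 RPKM. VIM and COL1A1 made up most of the mesenchymal sum. The sums thus follow a few abundant genes. The part of these shifts in the results that follow was not tested, and in bulk libraries fewer cells of a type and less RNA per cell cannot be told apart.

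TLL1, a tolloid protease encoded on chromosome 4 (166794410 to 167025609, hg19, plus strand), was present in UT and Ni-E and nearly absent from Ni-W and HCl3. Its level was 1.02 and 1.03 RPKM (UT), 1.22 and 1.34 (Ni-E), 0.01 and 0.03 (Ni-W) and 0.00 and 0.01 (HCl3). The level thus divided the libraries into a pair of sets with no overlap. In reads, TLL1 had 278 and 218 (UT), 297 and 337 (Ni-E), 4 and 3 (Ni-W) and 0 and 1 (HCl3). Scaled to library totals, the summed reads of UT were 85.3 times those of Ni-W (95% exact interval 41.1 to 213) and 584 times those of HCl3 (104 to 23100). The ratios of Ni-E were 101 over Ni-W (49.0 to 253) and 695 over HCl3 (124 to 27500). These intervals cover counting error only, and the single read in HCl3 leaves that ratio wide.

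TLL1 was picked out in an earlier analysis of the same libraries for its low level in Ni-W against UT, so those values are given as a description. The comparison of HCl3 with Ni-E uses no Ni-W or UT library, and there TLL1 was lower, at -9.45 ± 1.46 (log2 fold change ± SE, DESeq2 adjusted P value 1.44e-09). That value is a description too, since members and tests were chosen with earlier results of these data known. Against UT the log2 fold change was -6.46 ± 0.61 in Ni-W and -9.25 ± 1.46 in HCl3. While nickel was present TLL1 did not pass the test (log2 fold change in Ni-E against UT 0.19 ± 0.22, adjusted P value 0.694). Between HCl3 and Ni-W both groups lay close to the limit of counting, and TLL1 was not tested.

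The loss of TLL1 reads was compared with the genes around it. Among 17 expressed genes that start within 5 Mb of it, the median log2 fold change was -0.05 in Ni-W against UT and -0.03 in HCl3 against UT, with a lowest value of -0.53 and -0.47. Of the 17, 3 were called higher in Ni-W and 2 in HCl3, where 10.9% and 11.1% of all genes tested were called higher. The highest value belonged to MFAP3L, at 3.57 in Ni-W and 3.25 in HCl3.

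**Figure D1:**
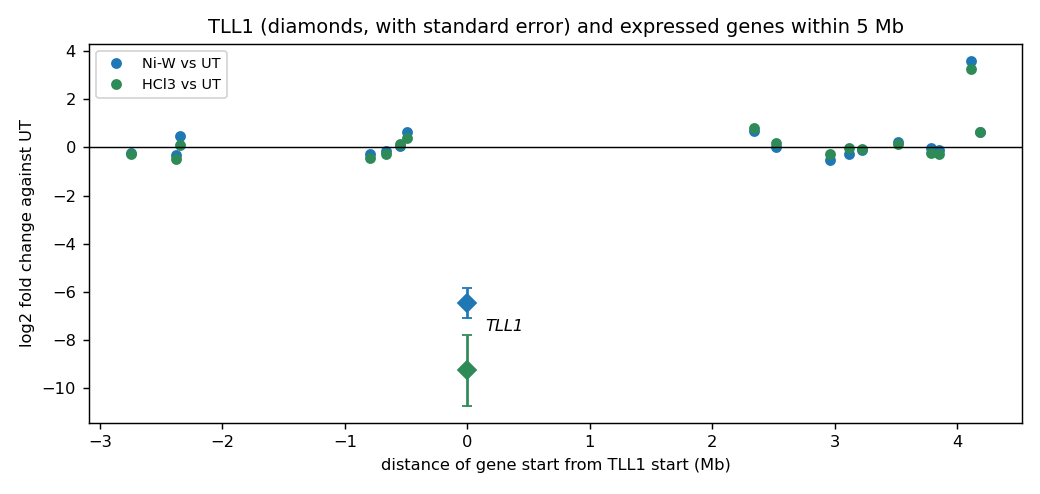
Log2 fold change against UT of TLL1 (diamonds, bars are the standard error) and of 17 expressed genes (circles) by the distance of their start from that of TLL1 in Mb, for Ni-W (blue) and HCl3 (green). TLL1 lies at -6.46 and -9.25, the latter resting on 1 read in HCl3, and no neighbour lies under -0.53.

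Genes whose pattern was most like that of TLL1 were sought among 12014 genes by Pearson's r of log2 normalised counts across the 8 libraries. Among the 5 highest were RANGRF (r = 0.996), DERL2 (0.994), CRADD (0.994) and ARG2 (0.993). The changes of these genes were far smaller than that of TLL1. RANGRF was at 52.59 and 50.54 RPKM (UT), 54.29 and 53.71 (Ni-E), 34.76 and 35.88 (Ni-W) and 28.25 and 31.28 (HCl3). Libraries of 1 group share their treatment, so such coefficients describe mainly the order of 4 groups. Among the members, GREM1 ran most opposite to TLL1 (r = -0.977), followed by CHRD (-0.892) and BMP1 (-0.864).

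The 250 bases before an annotated start of TLL1, GREM1, CHRD and ID1 are shown. These genes moved in opposite directions in the washed-out groups and their promoters differ in CpG content. As they were picked for these traits, they cannot show whether CpG content goes with direction. Sequences are from RefSeq (GRCh38.p14), written 5′ to 3′ on the strand of the gene, with CpG dinucleotides in capitals. The windows are chr4:165872987-165873236 on the plus strand for TLL1, chr15:32717754-32718003 on the plus strand for GREM1, chr3:184379804-184380053 on the plus strand for CHRD, and chr20:31605039-31605288 on the plus strand for ID1.
TLL1: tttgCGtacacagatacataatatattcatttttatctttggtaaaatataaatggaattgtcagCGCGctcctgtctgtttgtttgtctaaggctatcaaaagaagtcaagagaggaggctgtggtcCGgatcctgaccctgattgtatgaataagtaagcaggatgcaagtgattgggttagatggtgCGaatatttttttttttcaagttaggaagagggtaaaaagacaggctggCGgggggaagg
GREM1: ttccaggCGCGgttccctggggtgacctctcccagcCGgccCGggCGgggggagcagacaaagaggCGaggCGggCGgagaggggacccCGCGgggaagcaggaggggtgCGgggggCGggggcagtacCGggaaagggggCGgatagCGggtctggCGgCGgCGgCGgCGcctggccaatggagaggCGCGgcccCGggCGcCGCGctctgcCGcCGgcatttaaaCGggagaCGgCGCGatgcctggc
CHRD: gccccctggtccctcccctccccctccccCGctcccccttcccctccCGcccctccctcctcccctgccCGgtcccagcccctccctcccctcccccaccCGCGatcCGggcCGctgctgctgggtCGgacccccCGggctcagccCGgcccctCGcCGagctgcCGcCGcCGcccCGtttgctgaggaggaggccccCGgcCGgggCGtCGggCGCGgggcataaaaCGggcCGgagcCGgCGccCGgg
ID1: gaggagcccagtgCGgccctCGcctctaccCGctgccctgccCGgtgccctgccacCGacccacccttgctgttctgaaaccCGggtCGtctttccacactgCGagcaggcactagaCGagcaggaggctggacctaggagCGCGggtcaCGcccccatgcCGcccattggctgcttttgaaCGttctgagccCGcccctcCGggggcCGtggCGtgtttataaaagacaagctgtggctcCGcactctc

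The TLL1 window held 40.4% GC and 6 CpG, against a median of 58.0% GC and 11 CpG in 35116 promoter windows of the same length. GREM1 has 2 annotated starts in the table. The window shown, the upstream of the pair, held 76.8% GC and 32 CpG, more CpG than 90.5% of all windows. The other (chr15:32718234-32718483) held 66.0% GC and 23 CpG, more than 74.2% of windows. CHRD held 27 CpG (81.6% GC) and ID1 19 CpG (66.0% GC). The windows of BMP4 (25, 17 and 27 CpG) and ID3 (24 CpG), not shown, were above the median too. Neither BMP4 nor ID3 was called in Ni-W or HCl3 against UT. The letters GGCGCC are a GC-rich element bound by BMP-activated SMADs in some target genes. They occurred 2 times in the upstream GREM1 window, and 1 time each in that of CHRD and in the BMP4 window with 25 CpG. They were absent from the other windows of GREM1 and BMP4 and from those of TLL1, ID1 and ID3. Of all windows, 16.4% held them on either strand. The letters TATAAA were found in the windows of TLL1 and ID1 and in 10.7% of all windows. In ID1 the matches on the opposite strands overlap. These matches describe the letters only. No promoter window was used for BMP1, BMP2, BMP7 or NOG.

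BMP1 (chromosome 8, 22022653 to 22069840), the procollagen C-proteinase and closest relative of TLL1 among the members, was the main tolloid transcript in each library. It was at 8.79 and 7.71 RPKM (UT), 5.67 and 8.60 (Ni-E), 10.75 and 9.91 (Ni-W) and 12.98 and 13.91 (HCl3). Both HCl3 libraries lay above the other 6. BMP1 rose in HCl3 against UT by a log2 fold change of 0.70 ± 0.13 (adjusted P value 4.10e-07) and against Ni-E by 0.97 ± 0.16 (7.42e-09). With the trends in GC content and transcript length removed from each library, the change in HCl3 against UT was 0.20 (adjusted P value 0.0921) and was no longer called. The call in HCl3 against Ni-E was lost with limma on log2(RPKM + 1) (0.85, adjusted P value 0.0631) and on log2(RPKM + 0.1) (0.93, 0.0773). In Ni-W, BMP1 passed 1.5-fold against Ni-E (0.60 ± 0.17, adjusted P value 0.00148) and not against UT (0.33 ± 0.14, 0.0476). The call in Ni-W against Ni-E held in 11 of 19 alternatives. Among those that lost it were TMM size factors (0.58), limma at either pseudocount, and GC and length trends removed (0.5). The change was 0.34 without Ni-E replicate 1 and 0.56 without Ni-W replicate 1. In Ni-W against UT the change was -0.01 once GC and length trends were removed. The percentage of TLL1 in the summed RPKM of BMP1, TLL1 and TLL2 was 10.4 and 11.8% (UT), 17.6 and 13.4% (Ni-E), 0.0923 and 0.300% (Ni-W) and 0.00 and 0.0715% (HCl3). TLL2, the remaining relative, did not exceed 0.08 RPKM.

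Of the 3 ligands, BMP4 alone had more than 4 reads in a library. BMP4 (chromosome 14, 54416455 to 54423554, minus strand) was at 15.38 and 16.72 RPKM (UT), 9.25 and 9.33 (Ni-E), 14.56 and 13.58 (Ni-W) and 16.00 and 16.52 (HCl3). The Ni-E libraries lay below the other 6. BMP4 fell in Ni-E against UT by 0.85 ± 0.15 on the log2 scale (1.80-fold lower, adjusted P value 1.00e-06), and this was -1.0 with GC and length trends removed. The call was lost with limma on log2(RPKM + 1) (-0.73, adjusted P value 0.0823) and on log2(RPKM + 0.1) (-0.78, 0.0901). It did not pass the test in Ni-W against UT (-0.26 ± 0.14, adjusted P value 0.150) or in HCl3 against UT (-0.04 ± 0.13, 0.873). Set directly against Ni-E, BMP4 was higher in HCl3 by 0.80 ± 0.13 (adjusted P value 3.60e-09) and in Ni-W by 0.58 ± 0.14 (0.000169). The latter was 1.49-fold and so just under the 1.5-fold threshold. It passed with all 8 libraries in one fit (0.59), limma on log2(RPKM + 0.1) (0.59) and GC and length trends removed (0.6). Without Ni-E replicate 1 the Ni-W change was 0.60, and without Ni-W replicate 2 it was 0.63.

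BMP2 (chromosome 20, 6748745 to 6760910) had at most 2 reads in any library, and BMP7 (chromosome 20, 55743809 to 55841707) had 2 reads in Ni-E replicate 1, 4 in HCl3 replicate 1 and 0 elsewhere. These genes were not tested and no fold is given. A count of 3 reads, the smallest taken as seen, corresponds to between 6.57e-06 and 1.14e-05% of the reads of a library. BMP7 overlaps LOC102723590, which lies on the other strand, and whether counting used strand was not stated. Among 10 further ligand genes, 4 or 5 could be tested in a comparison. BMP8B was the only one called, at 0.07 and 0.10 RPKM (UT), 0.34 and 0.23 (Ni-W) and 0.44 and 0.41 (HCl3).

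Among the 3 antagonists, GREM1 had the largest log2 fold changes against UT in Ni-W and HCl3. GREM1 (chromosome 15, 33010205 to 33026870), which encodes gremlin, was at 5.04 and 6.45 RPKM (UT), 4.31 and 3.69 (Ni-E), 17.14 and 18.06 (Ni-W) and 33.67 and 33.20 (HCl3). No pair of groups overlapped, and the order was Ni-E, UT, Ni-W, HCl3. GREM1 rose in Ni-W against UT by a log2 fold change of 1.59 ± 0.14 (3.01-fold, adjusted P value 2.92e-28) and in HCl3 against UT by 2.50 ± 0.12 (5.64-fold, 7.09e-90). Against Ni-E the changes were 2.16 ± 0.13 in Ni-W (adjusted P value 5.48e-61) and 3.07 ± 0.11 in HCl3 (9.65e-177). GREM1 was also higher in HCl3 than in Ni-W, by 0.91 ± 0.08 (1.88-fold, adjusted P value 1.52e-27).

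Against UT, the log2 fold changes of the 27 expressed genes within 5 Mb of GREM1 had medians of 0.42 (Ni-W) and 0.29 (HCl3). With that median subtracted, GREM1 stood at 1.17 in Ni-W and 2.20 in HCl3. The fall of GREM1 in Ni-E against UT was at the threshold (-0.59 ± 0.18, 1.5-fold, adjusted P value 0.0134). It was lost with GC and length trends removed (-0.34, adjusted P value 0.191), without UT replicate 2 (-0.41, 0.511), without Ni-E replicate 1 (-0.73, 0.0924) and without Ni-E replicate 2 (-0.46, 0.414). LOC100131315 overlaps GREM1 on the opposite strand and held 6 to 21 reads a library, while GREM1 held 573 to 5896.

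NOG (chromosome 17, 54671060 to 54672951), which encodes noggin, was higher in HCl3 than in all other groups. It was at 3.91 and 4.07 RPKM (UT), 3.90 and 2.77 (Ni-E), 2.68 and 3.48 (Ni-W) and 6.57 and 6.78 (HCl3). NOG rose in HCl3 against UT by 0.69 ± 0.18 on the log2 scale (adjusted P value 0.000745), against Ni-E by 0.99 ± 0.21 (1.60e-05) and against Ni-W by 1.11 ± 0.18 (6.18e-08). The call against UT was lost with GC and length trends removed (0.36, adjusted P value 0.0817), without HCl3 replicate 1 (0.72, 0.119) and without HCl3 replicate 2 (0.66, 0.169). In Ni-W against UT, NOG was -0.42 ± 0.23 (adjusted P value 0.167), and with GC and length trends removed it was called lower at -0.62 (0.0213).

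CHRD (chromosome 3, 184097861 to 184107617), which encodes chordin, the antagonist that tolloid proteases cleave, was expressed at under 1 RPKM in each library. Its level was 0.30 and 0.24 RPKM (UT), 0.29 and 0.53 (Ni-E), 0.59 and 0.71 (Ni-W) and 0.92 and 0.98 (HCl3), from 25 to 149 reads. The UT and Ni-E libraries overlapped, and Ni-W and HCl3 lay above them. CHRD rose in HCl3 against UT by 1.77 ± 0.37 on the log2 scale (3.40-fold, adjusted P value 2.09e-05), a call that was lost without HCl3 replicate 2 (1.72, 0.0717). The rise in Ni-W against UT (1.23 ± 0.43, adjusted P value 0.0158) was lost without any 1 of its libraries (1.39, adjusted P value 0.0901, without UT replicate 1; 1.1, 0.153, without UT replicate 2; 1.37, 0.233, without Ni-W replicate 1; 1.09, 0.37, without Ni-W replicate 2) and with GC and length trends removed (0.87, 0.0803). In HCl3 against Ni-E the change was 1.21 ± 0.38 (adjusted P value 0.00518), lost without Ni-E replicate 1 (0.84, 0.154), HCl3 replicate 1 (1.26, 0.171) or HCl3 replicate 2 (1.16, 0.22).

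**Figure D2:**
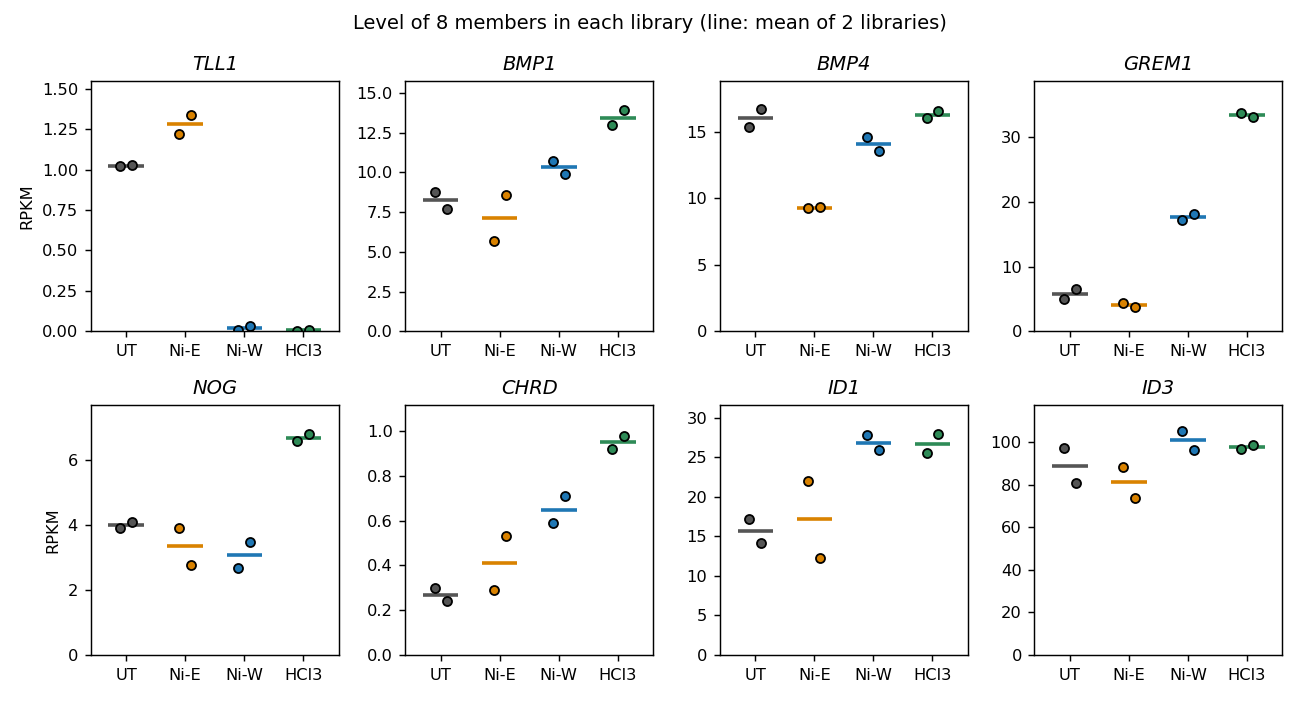
RPKM of 8 members in each of 8 libraries, with the mean of the 2 libraries of a group as a line, and a linear axis from 0 for each gene. TLL1 is at or under 0.03 in Ni-W and HCl3, GREM1 reaches 33.67 in HCl3, BMP4 is lowest in Ni-E, and ID3 overlaps between UT and every other group.

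The balance of antagonist and ligand transcripts was read from RPKM, which is scaled to gene length. The ratio of GREM1 to BMP4 was 0.328 and 0.386 (UT), 0.466 and 0.395 (Ni-E), 1.18 and 1.33 (Ni-W) and 2.10 and 2.01 (HCl3). Summed over GREM1, NOG and CHRD and divided by the sum of BMP2, BMP4 and BMP7, the ratio was 0.601 and 0.643 (UT), 0.918 and 0.749 (Ni-E), 1.40 and 1.64 (Ni-W) and 2.57 and 2.48 (HCl3). For these 3 antagonists the ratio was under 1 in UT and Ni-E and over 1 in Ni-W and HCl3, but this side of 1 depended on which antagonists were summed. With CHRDL1, a further chordin-like antagonist, added after seeing the data, the ratio was 1.23 and 1.27 (UT), 1.65 and 1.39 (Ni-E), 1.63 and 1.87 (Ni-W) and 2.91 and 2.80 (HCl3). It was then over 1 in all 8 libraries, Ni-E and Ni-W overlapped, and HCl3 lay above the rest. Other extracellular modulators were not summed. Mean RPKM in UT, Ni-E, Ni-W and HCl3 was 86.09, 62.09, 122.5 and 108.8 for CRIM1. It was 70.56, 63.94, 55.24 and 50.1 for TWSG1, and 7.865, 5.15, 11.34 and 13.87 for BMPER. The order of the groups thus holds for the genes summed, and that of a wider sum was not determined. GREM1 made up 54.5 and 59.9% of the sum of GREM1, NOG and CHRD in UT and between 81.1 and 84.0% in Ni-W and HCl3. The higher ratio in Ni-E than in UT came with the lower BMP4 there. These are ratios of transcripts and not of protein.

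**Figure D3:**
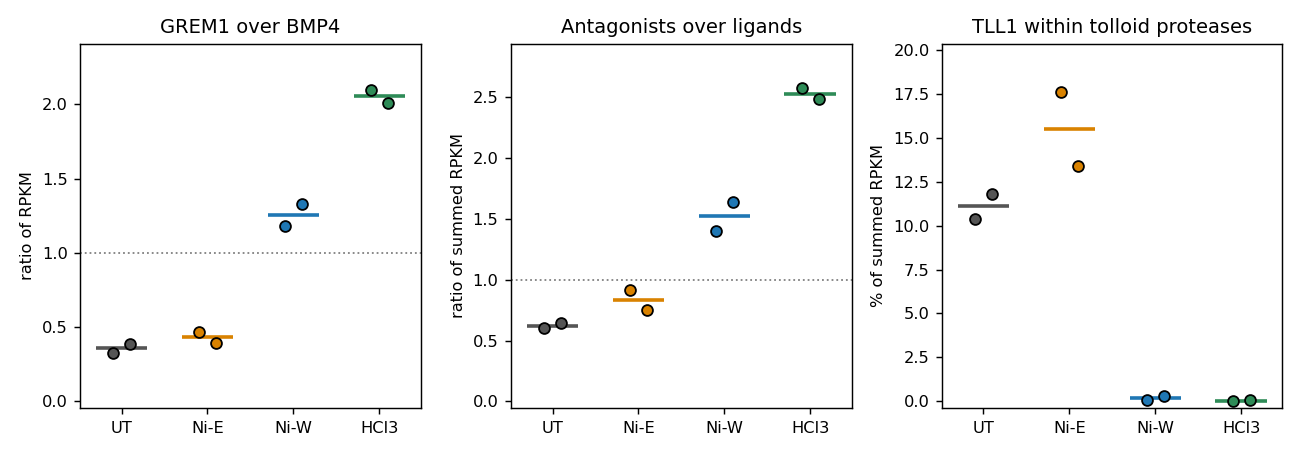
Ratio of GREM1 to BMP4 RPKM, ratio of summed GREM1, NOG and CHRD to summed BMP2, BMP4 and BMP7 RPKM, and the percentage of TLL1 in the summed RPKM of TLL1, BMP1 and TLL2, by group, with 1 point per library and the group mean as a line. Both ratios lie under 1 (dotted) in UT and Ni-E and over 1 in Ni-W and HCl3, which does not hold once CHRDL1 is summed with the antagonists, and TLL1 falls from between 10.4 and 17.6% to at most 0.300%.

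The targets ID1 and ID3 encode helix-loop-helix proteins that bind and block differentiation factors. ID1 (chromosome 20, 30193086 to 30194317) was at 17.13 and 14.17 RPKM (UT), 22.02 and 12.30 (Ni-E), 27.75 and 25.97 (Ni-W) and 25.49 and 27.98 (HCl3). The Ni-W and HCl3 libraries lay above all UT and Ni-E libraries, and the Ni-E libraries spanned both of UT. ID1 rose in Ni-W against UT by 0.73 ± 0.15 on the log2 scale (1.66-fold, adjusted P value 2.07e-05) and in HCl3 against UT by 0.72 ± 0.15 (1.64-fold, 1.53e-05). With GC and length trends removed these were 0.63 (still called) and 0.51 (under 1.5-fold), and in HCl3 the call was also lost without HCl3 replicate 2 (0.65, adjusted P value 0.0707) and with the median of expressed genes within 5 Mb subtracted (0.47). Against Ni-E, ID1 did not pass the test in Ni-W (0.62 ± 0.42, adjusted P value 0.254) or HCl3 (0.60 ± 0.43, 0.280). It was called in both with edgeR (0.61, adjusted P value 0.0411, and 0.6, 0.0423). DESeq2 with all 8 libraries in one fit called it in both too (0.63, 0.00485, and 0.61, 0.00683). Without Ni-E replicate 1 the changes were 1.11 and 1.1.

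ID3 (chromosome 1, 23884421 to 23886285, minus strand) was the most abundant member at 73.60 to 105.24 RPKM and was called in no comparison with DESeq2. It was at 97.18 and 80.59 RPKM (UT), 88.40 and 73.60 (Ni-E), 105.24 and 96.40 (Ni-W) and 96.59 and 98.56 (HCl3). Its log2 fold change against UT was -0.19 ± 0.14 (Ni-E), 0.15 ± 0.12 (Ni-W) and 0.08 ± 0.11 (HCl3). Against Ni-E it had an adjusted P value under 0.05 in Ni-W (0.32 ± 0.12, 0.0190) and HCl3 (0.25 ± 0.10, 0.0428), with changes under 1.5-fold. The ratio of ID1 to ID3 was 0.176 in both UT libraries, 0.249 and 0.167 in Ni-E, and 0.264 to 0.284 in Ni-W and HCl3.

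Counted over the comparisons, 8 of the 10 members could be tested, and 7 in HCl3 against Ni-W. In Ni-E against UT 0 were called higher and 2 lower (BMP4 and GREM1), where 3.75% of all genes tested were called higher and 2.05% lower. By limma, 1 member passed 1.5-fold there with an unadjusted P value under 0.05. In Ni-W against UT 3 were higher (GREM1, CHRD and ID1) and 1 lower (TLL1), against 10.9% and 4.83% of all genes. In HCl3 against UT 5 were higher (BMP1, GREM1, NOG, CHRD and ID1) and 1 lower (TLL1), against 11.1% and 3.74%. Both comparisons use the same UT libraries. In Ni-W against Ni-E 2 were higher and 1 lower, against 11.7% and 8.81%, and in HCl3 against Ni-E 5 were higher and 1 lower, against 10.4% and 6.78%. In HCl3 against Ni-W 2 were higher (GREM1 and NOG) and 0 lower, against 3.10% and 1.66%. Median log2 fold changes of the members tested against UT were -0.24 (Ni-E), 0.24 (Ni-W) and 0.69 (HCl3), beside medians of all genes between 0.00 and 0.01.

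**Figure D4:**
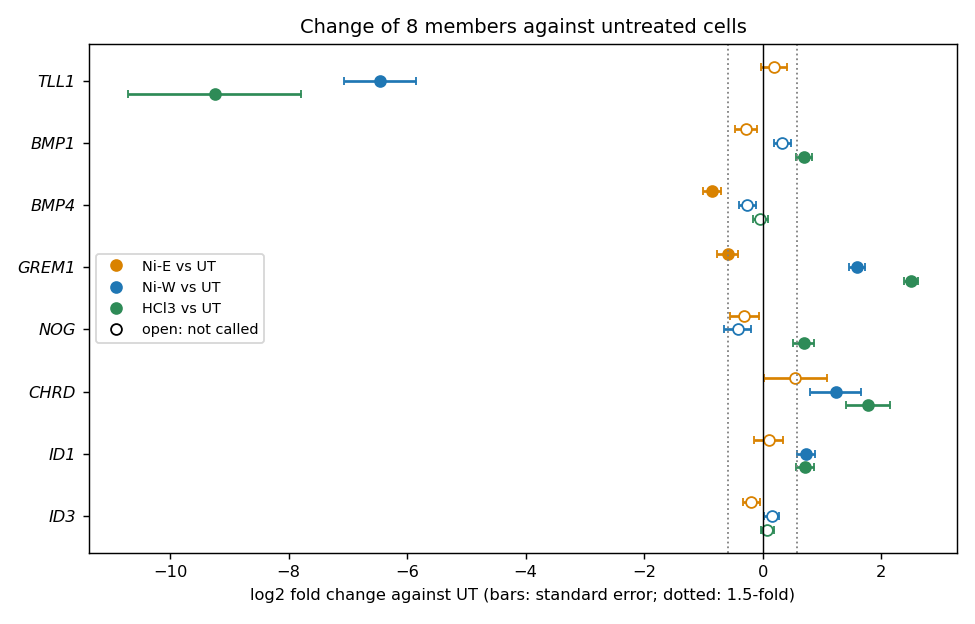
Log2 fold change against UT of 8 members in Ni-E (orange), Ni-W (blue) and HCl3 (green), with the standard error as bars, filled where called and open where not, and dotted lines at 1.5-fold. TLL1 lies far to the left in Ni-W and HCl3, GREM1 goes from -0.59 in Ni-E to 1.59 and 2.50, and ID3 stays within the dotted lines.

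Other genes of the pathway were read from 66 genes in 6 lists, of which 47 could be tested in Ni-E against UT and 50 in each other comparison. In Ni-E against UT 4 were called higher and 10 lower (median log2 fold change -0.18), where 3.75% of all genes tested were higher and 2.05% lower. In Ni-W against UT 12 were higher and 3 lower (median 0.48), against 10.9% and 4.83% of all genes. In HCl3 against UT 20 were higher and 1 lower (median 0.63), against 11.1% and 3.74%. In HCl3 against Ni-W 8 were higher and 0 lower by DESeq2 (median 0.12), against 3.10% and 1.66%. The counts of the single lists are read against the same shares, and nothing is read from counts of 1 gene of 5 or of 10. The lists were drawn up with earlier results of these libraries known.

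Of 8 receptors and co-receptors tested in HCl3 against UT, 3 were called higher, and of 9 tested in Ni-W against UT, 0 were called. BMPR1A, a type I receptor, was at 5.54 to 6.62 RPKM and called nowhere, and BMPR1B did not exceed 0.03 RPKM. BMPR2, a type II receptor, was at 6.00 and 7.39 RPKM (UT), 5.58 and 6.07 (Ni-E), 9.19 and 10.73 (Ni-W) and 11.82 and 10.66 (HCl3). It rose in HCl3 against UT by 0.69 ± 0.12 on the log2 scale (adjusted P value 8.16e-08) and in Ni-W reached 0.54 ± 0.13, under 1.5-fold. ACVR1 (0.38 ± 0.16) and the co-receptor ENG (0.28 ± 0.10) were not called in Ni-W against UT. In HCl3 against UT, ACVR1 (0.59 ± 0.15) and ENG (0.62 ± 0.09) were called higher as well. Expressed genes within 5 Mb had medians there of 0.34 (50 genes, BMPR2), 0.50 (16 genes, ACVR1) and 0.21 (111 genes, ENG). With these subtracted the changes were 0.36, 0.08 and 0.42, so all 3 were under 1.5-fold.

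Among the SMADs, the shared SMAD4 and the BMP-activated SMAD1 and SMAD5 were called in no comparison, with SMAD5 at 21.22 to 25.42 RPKM. SMAD9, activated by BMP receptors too, fell in Ni-E against UT (-0.91 ± 0.21, adjusted P value 0.000458) and rose in Ni-W (0.91 ± 0.17, 1.94e-06) and HCl3 (0.66 ± 0.16, 0.000257). SMAD6 and SMAD7 are inhibitory SMADs. SMAD6 was at 3.98 and 3.67 RPKM (UT), 2.47 and 2.61 (Ni-E), 6.96 and 6.05 (Ni-W) and 8.36 and 8.39 (HCl3), and rose by 0.69 ± 0.18 in Ni-W and 1.04 ± 0.16 in HCl3. SMAD7 rose in Ni-W (0.80 ± 0.16, adjusted P value 4.06e-06) and reached 0.54 ± 0.15 in HCl3, under 1.5-fold. Some of these rises came with rises of the genes around them. The 30 expressed genes within 5 Mb of SMAD9 had medians of 0.48 (Ni-W) and 0.37 (HCl3), and with these subtracted SMAD9 was at 0.43 and 0.28, under 1.5-fold. The 61 around SMAD6 had medians of 0.32 and 0.25, which left SMAD6 at 0.37 in Ni-W, under 1.5-fold, and at 0.78 in HCl3. The 25 around SMAD7 had medians of 0.13 (Ni-W) and -0.18 (HCl3). With these subtracted SMAD7 was past 1.5-fold in both, at 0.67 in Ni-W and 0.72 in HCl3.

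ID2, of the same family as ID1 and ID3, had larger log2 fold changes against UT than either. It was at 5.56 and 5.35 RPKM (UT), 3.19 and 3.68 (Ni-E), 18.92 and 17.53 (Ni-W) and 13.08 and 12.32 (HCl3). It fell in Ni-E against UT (-0.72 ± 0.24, adjusted P value 0.0270) and rose in Ni-W (1.70 ± 0.16, 1.43e-23) and HCl3 (1.16 ± 0.17, 1.16e-10). RUNX2, a regulator of bone formation, fell in Ni-E (-0.67 ± 0.18) and Ni-W (-0.70 ± 0.17) and was -0.45 ± 0.16 in HCl3. Of 5 other target genes tested against UT, 3 were called lower in Ni-E (ID2, RUNX2 and ATOH8), with ATOH8 at -1.22 ± 0.14. In Ni-W 1 was higher (ID2) and 1 lower (RUNX2), and in HCl3 1 was higher (ID2).

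Other antagonists did not share one direction. CHRDL1, a chordin-like antagonist, was at 9.64 and 10.43 RPKM (UT), 6.78 and 5.96 (Ni-E), 3.29 and 3.16 (Ni-W) and 5.39 and 5.24 (HCl3), and fell in each against UT (-0.71 ± 0.14, -1.66 ± 0.14 and -0.97 ± 0.12). FSTL3, which binds activins and some BMPs, rose in Ni-W (1.08 ± 0.11) and HCl3 (0.78 ± 0.10). BMPER, an extracellular modulator of BMP activity, fell in Ni-E (-0.66 ± 0.18) and rose in HCl3 (0.77 ± 0.12), where the 32 expressed genes around it had a median of 0.47 and BMPER less that median was 0.30, under 1.5-fold. NBL1, of the same family as GREM1, rose in Ni-E (0.71 ± 0.17) and HCl3 (0.63 ± 0.20) and was -0.36 ± 0.19 in Ni-W. Of the 10 genes of this list tested in each washed-out group, 1 was higher and 1 lower in Ni-W, and 4 were higher and 1 lower in HCl3.

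Tolloid relatives, substrates and enhancers held 6 of the 12 pathway genes called higher in Ni-W against UT and 9 of the 20 in HCl3. Of 13 tested in Ni-W against UT 6 were called higher and 1 lower (median 1.28), and of 14 tested in HCl3 against UT 9 were higher and 0 lower by DESeq2 (median 1.53). COL5A1, a fibrillar procollagen chain, was at 2.44 and 2.01 RPKM (UT), 1.76 and 4.42 (Ni-E), 17.65 and 19.01 (Ni-W) and 29.08 and 29.77 (HCl3), with log2 fold changes of 3.01 ± 0.13 and 3.67 ± 0.11 in the washed-out groups. LOXL1, which crosslinks elastin, rose in Ni-E (1.59 ± 0.21), Ni-W (1.69 ± 0.20) and HCl3 (2.71 ± 0.17). BGN, the matrix proteoglycan biglycan, went from 0.38 and 0.26 RPKM in UT to 2.68 and 2.73 (Ni-W) and 2.65 and 2.48 (HCl3). COL1A2 rose in HCl3 (3.21 ± 0.27) from a low level, with 0.24 and 0.18 RPKM in UT and 2.05 and 2.01 in HCl3. The gene called lower in Ni-W was COL1A1, which encodes a chain of type I procollagen and had far more transcript than COL1A2. COL1A1 was at 390.18 and 337.90 RPKM (UT), 177.60 and 337.31 (Ni-E), 218.07 and 245.29 (Ni-W) and 431.38 and 454.16 (HCl3). Both Ni-W libraries lay below both of UT, and the fall was -0.69 ± 0.11 (adjusted P value 9.66e-09). In HCl3 COL1A1 was 0.23 ± 0.10 against UT (adjusted P value 0.0547), and it was higher than in Ni-W by 0.92 ± 0.08 (6.37e-30). COL1A1 and COL1A2 are also among the mesenchymal markers whose summed level is given above.

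**Figure D5:**
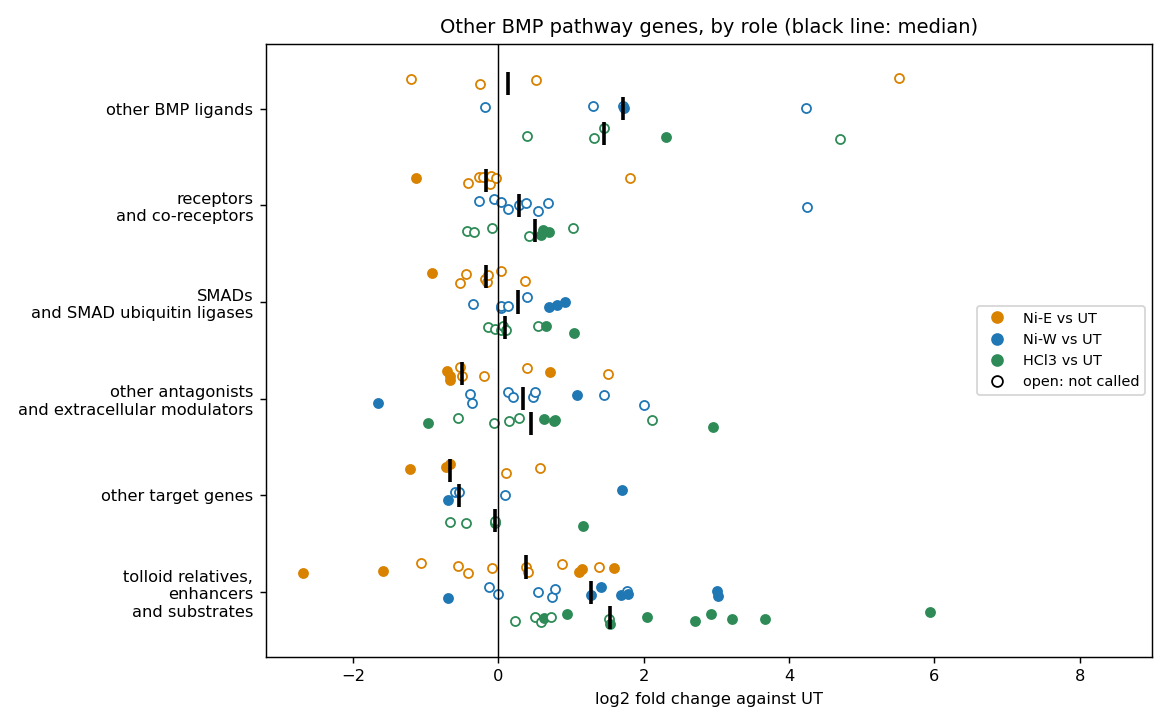
Log2 fold change against UT of the other BMP pathway genes tested, by list, in Ni-E (orange), Ni-W (blue) and HCl3 (green), filled where called and open where not, with the list median as a black line. Medians of the substrate list are 0.38, 1.28 and 1.53, and the medians of the SMAD list lie between -0.17 and 0.27.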

How the data were processed

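RNA was measured by RNA-Seq (TruSeq libraries) in 8 libraries of BEAS-2B cells. Per the labels and the study's methods, the authors aligned reads to hg19 with STAR 2.4, discarded reads with several alignments, and obtained counts per RefSeq gene with BioWardrobe. The deposited files also give RPKM, which the authors derived from these counts and rounded to 2 decimals. Strand use in counting was not stated. Positions are those of the files.

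The deposited counts of each pair of groups were fitted with DESeq2 1.42.0 in R 4.3.3 (4 libraries, all genes, two-sided Wald test, default independent filtering, Benjamini-Hochberg adjustment). Genes were called at an adjusted P value under 0.05 and a change of at least 1.5-fold. With 2 libraries a group, P values rest on a spread shared across genes. Alternatives used edgeR 4.0.16, limma 3.58.1 on log2 RPKM (pseudocount 1 or 0.1), TMM size factors, a mean count of at least 10, all 8 libraries in one fit, other fold thresholds, the replicate suffix as a block, GC and length trends removed (GENCODE transcripts gave GC for all members and for 91.0% of genes whose mean count reached 10), the median of expressed genes within 5 Mb subtracted, and each library left out. Rate ratios of TLL1 carry 95% exact intervals (scipy 1.17.1). Scripts were tested on simulated data.

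Members, lists and tests were chosen with earlier results of these data known. The pathway genes named were the 4 largest changes per list called in Ni-W or HCl3 against UT with a mean normalised count of at least 50, plus BMPR1A, BMPR1B, BMPR2, ACVR1, SMAD1, SMAD5, SMAD4, SMAD6, SMAD7, ID2 and TLL2. MFAP3L, BMP8B, ATOH8 and COL1A1 were named after their values were seen. The genes entering the fit and the threshold of independent filtering were changed from a first run to those of the earlier analysis, and the first settings are kept as alternatives chosen after seeing the data, as are the crossed block and the antagonist sum with CHRDL1. Of the 5 genes most like TLL1, 1 is not reported here.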

Additional observations from a re-analysis of the deposited data

Results flagged for a closer look

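GREM1 and NOG differed between the washed-out groups under the same contrast against UT, by the direct test of HCl3 against Ni-W with DESeq2. The difference in log2 fold change was 0.91 ± 0.08 for GREM1 (adjusted P value 1.52e-27, range 3.15e-42 to 0.0504 over 18 alternatives) and 1.11 ± 0.18 for NOG (adjusted P value 6.18e-08, range 6.13e-09 to 0.0855 over 18 alternatives). Both HCl3 libraries lay above both Ni-W libraries for each gene. GREM1 was above UT in both groups, while NOG was above UT in HCl3 and below it in Ni-W, where it did not pass the test. Ni-W stands for 1 clone, and clone, experiment and group cannot be told apart.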

How the results depend on the processing

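Of 23 calls over the members, 8 held under every alternative run: TLL1 in its 4 comparisons, and GREM1 in Ni-W and HCl3 against UT and against Ni-E. Of 870 values recomputed for the members, 770 kept their direction and side of the threshold, 61 dropped below it, 22 passed it and 17 changed sign. The cause of these shifts was not tested beyond what each alternative changes. Leaving out genes without reads, or setting independent filtering at 0.05, changed no call. With 2 libraries a group, leaving one out assumes that the lone library varies like the others. Levels near 3 reads (TLL1 in Ni-W and HCl3, BMP2, BMP7) are limited by depth.

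The count of members called in Ni-E against UT (2) was 1 with TMM size factors, all 8 libraries in one fit, the replicate block, GC and length trends removed with or without the block, or the neighbourhood median subtracted, 0 with limma at either pseudocount (1 at an unadjusted P value under 0.05, 2 by DESeq2) or at 2-fold, and 1 to 2 with a library left out. In HCl3 against UT (6) it was 3 with GC and length trends removed, 2 with the block added, 3 at 2-fold and 3 to 6 with a library left out. In Ni-W against Ni-E (3) it was 5 with all 8 libraries or with no fold threshold. In HCl3 against Ni-E (6) it was 3 at 2-fold. In HCl3 against Ni-W (2) it was 0 with limma on log2(RPKM + 0.1) (2 at an unadjusted P value under 0.05) and 1 at 2-fold. Pathway genes called in Ni-E against UT (14) were 0 with limma (8 and 16 at an unadjusted P value under 0.05 with pseudocounts of 1 and 0.1), 8 with trends removed and the block, 7 at 2-fold and 8 to 9 with a library left out. In HCl3 against UT (21) they were 11 at 2-fold. In HCl3 against Ni-W (8) they were 5 and 1 with limma at pseudocounts of 1 and 0.1, 19 with no fold threshold and 2 at 2-fold.

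The mean ratio of antagonist to ligand RPKM was 0.622 (UT), 0.834 (Ni-E), 1.52 (Ni-W) and 2.52 (HCl3). With CHRDL1 added to the antagonists, an alternative chosen after seeing the data, it was 1.25, 1.52, 1.75 and 2.85 in the same order. Other extracellular modulators, such as CRIM1 and TWSG1, were not summed.

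Changes of sign were confined to values that had not been called. ID1 in Ni-E against UT (0.10) was -0.09 with trends removed, -0.15 with the block added and -0.39 to 0.47 with a library left out (-0.39 without Ni-E replicate 1, -0.03 without UT replicate 2). BMP1 in Ni-W against UT (0.33) was -0.01 with trends removed, with or without the block. BMP4 in HCl3 against UT (-0.04) was 0.02 with limma at either pseudocount, 0.06 with the neighbourhood median subtracted and -0.11 to 0.03 with a library left out. ID3 in HCl3 against UT (0.08) was -0.04 with trends removed, with or without the block, and -0.05 to 0.22 with a library left out. NOG in Ni-W against Ni-E (-0.12) was -0.37 to 0.17 with a library left out. ID1 in HCl3 against Ni-W (-0.01) was -0.08 to 0.06 with a library left out.

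The replicate suffix gives only a number, so it does not pair libraries. Same-suffix deviations correlated at between -0.160 and 0.200. The block took away the calls of GREM1 in Ni-E against UT (adjusted P value 0.136) and CHRD in Ni-W against UT (0.0832), and called ID1 in Ni-W against Ni-E (0.68, 0.00958), as did the crossed pairing (0.68, 0.0100).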
